A study of Mus musculus with 8 samples.

Results

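The genes described here are 6 genes of cellular zinc handling, Mt1, Mt2, Mtf1, Slc39a14, Slc39a10 and Slc30a1, taken by symbol from a table of 41444 mouse genes. All 6 were found, and all 6 had a mean value of at least 4 on the table's log2 scale, as did 11851 genes of the table, which were tested. The samples were macrophages grown from the bone marrow of wild-type C57BL/6 mice with the growth factor M-CSF at 100 ng/mL. The treated group, SLIT2, held 4 libraries from cells given SLIT2 at 6 nM for 16 hours (SLIT2 is a secreted protein that binds ROBO receptors), and the vehicle group held 4 libraries from cells given vehicle control. The comparison addresses how SLIT2 alters transcription in these cells. All values are regularized-log (rlog) values, a transform of read counts to a log2 scale that corrects for library size and shrinks low genes towards their mean. The sources used here give no read counts, so depth per library is unknown.

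Metallothioneins are small cysteine-rich proteins that bind zinc, copper and cadmium, and so buffer free zinc in the cell. MTF1 is a zinc-sensing transcription factor that binds metal response elements in front of metallothionein genes and of Slc30a1. Transporters of the SLC39 (ZIP) family bring zinc into the cytosol, and those of the SLC30 (ZnT) family remove it, either out of the cell or into organelles. In macrophages, zinc handling is tied to defence against microbes and to inflammatory signalling.

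With SLIT2, Slc39a14 and Mt1 rose and Slc30a1 fell, while Mt2, Mtf1 and Slc39a10 did not pass the test in the fit without a block. The test was limma with Benjamini-Hochberg adjustment over all genes tested and a threshold of 0.05. Thus 2 of 6 genes were called higher and 1 lower, where 6.76% of all tested genes were called higher, 6.58% lower and 13.3% in either direction. For an alternative fit the replicate numbers were taken to pair the samples, because libraries of the same number deviated together from their group means. Libraries of different numbers were not compared in this way. Pairing by number was thus not told apart from the replicate sets described below. With replicate number as a block, Mt2 was also called higher and Slc39a10 lower, giving 3 higher and 2 lower, where 33.0% of all genes were called. Only the SLIT2 and vehicle values of Mt1, Slc39a14 and Slc30a1, among the 6 genes, did not overlap, and 20.5% of all tested genes had no overlap.

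The windows around the annotated start sites of Mt1, Mt2 and Slc30a1 are shown because these are the genes in front of which MTF1 is known to act, and because Mt1 and Slc30a1 moved in opposite directions. Capitals mark each match to the core of the metal response element, TGCACNC or TGCGCNC on either strand. Each window runs from 250 bases before the start site in the RefSeq table to 50 bases from it, 5′ to 3′ along the gene, in GRCm38.p6. Mt1 lies at chr8:94178839-94179138, Mt2 at chr8:94172368-94172667 and Slc30a1 at chr1:191906531-191906830, all on the plus strand.
Mt1: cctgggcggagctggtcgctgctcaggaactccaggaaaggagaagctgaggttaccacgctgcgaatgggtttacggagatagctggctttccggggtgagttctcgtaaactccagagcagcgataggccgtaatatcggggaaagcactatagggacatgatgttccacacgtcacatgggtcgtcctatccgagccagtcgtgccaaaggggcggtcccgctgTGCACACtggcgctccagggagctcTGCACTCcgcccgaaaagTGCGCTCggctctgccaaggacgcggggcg
Mt2: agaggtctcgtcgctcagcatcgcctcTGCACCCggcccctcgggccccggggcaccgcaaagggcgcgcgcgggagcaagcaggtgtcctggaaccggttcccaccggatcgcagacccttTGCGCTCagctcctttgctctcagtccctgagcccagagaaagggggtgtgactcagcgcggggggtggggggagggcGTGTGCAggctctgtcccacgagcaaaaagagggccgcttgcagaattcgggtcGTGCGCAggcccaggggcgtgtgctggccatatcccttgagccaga
Slc30a1: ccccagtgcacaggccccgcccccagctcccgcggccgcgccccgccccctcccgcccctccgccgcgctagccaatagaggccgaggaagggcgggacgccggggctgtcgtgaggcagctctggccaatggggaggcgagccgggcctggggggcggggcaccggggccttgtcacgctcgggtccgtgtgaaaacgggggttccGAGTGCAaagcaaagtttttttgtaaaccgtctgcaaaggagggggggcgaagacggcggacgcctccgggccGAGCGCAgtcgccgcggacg

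The core matched at 4 places in the Mt2 window, 3 in the Mt1 window and 2 in the Slc30a1 window. Of all 32851 promoter windows in the table, 25.7% held at least 1 match, 7.11% at least 2, 1.97% at least 3 and 0.517% at least 4. The Mtf1 window and both Slc39a10 windows held 0 matches, and Slc39a14 has no window in the table. Sequence outside the windows was not searched, and the start sites used in these cells were not measured. The counts and positions thus hold only for the windows and their annotated start sites. In Mt1 the matches began at -23, 3 and 21 relative to the annotated start site, all on the plus strand. In Slc30a1 they began at -43 and 31, both on the minus strand, and in Mt2 at -223, -128, -50 and 5, the last pair on the minus strand. The 2 further motifs searched were the STAT motif TTCNNNGAA and the antioxidant response element core TGACNNNGC, on both strands. The first was in 8.3% of all windows, and among these genes only in the second Slc39a10 window. The other was in 12.4% of windows, with 1 match each in Mt2 and Slc30a1. No base was shared between a metal core and either of these motifs. GC content was 60.7% in the Mt1 window, 67.7% in Mt2 and 73% in Slc30a1, against a median of 52.7% over all windows. In GENCODE M21 the longest principal transcript began 46 bases downstream of the RefSeq start site for Mt2, 7 bases upstream for Mt1 and 14 upstream for Slc30a1. For Slc39a10 it began at -428 relative to the start site of the first window and at 71730 relative to that of the second, with positive values downstream.

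**Figure D1:**
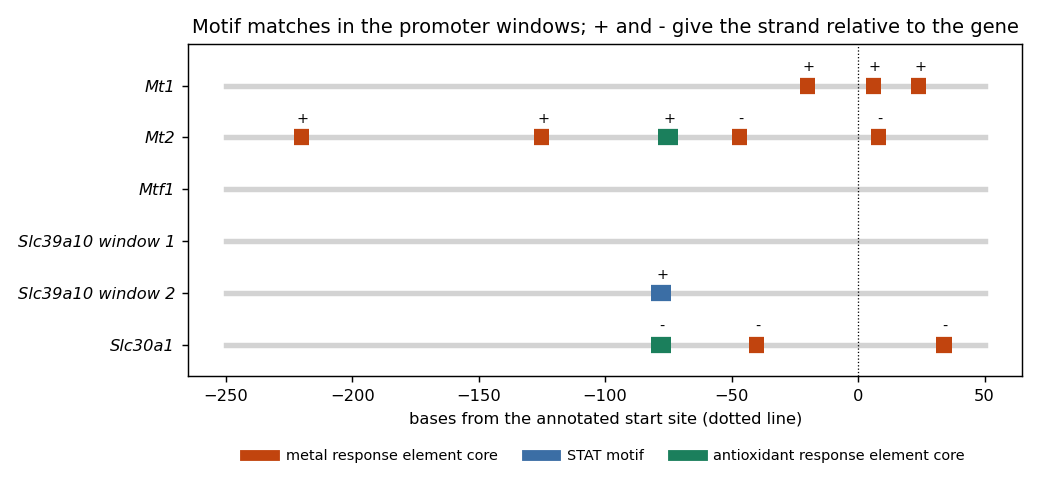
Motif matches in the promoter windows of 5 genes, with Slc39a10 in 2 windows, as bases from the annotated start site. Orange blocks are metal response element cores, blue the STAT motif and green the antioxidant response element core, with the strand above each. Mt2 holds 4 metal cores, Mt1 holds 3 and Slc30a1 holds 2.

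The libraries fell into 2 replicate sets, with replicates 1 and 2 close duplicates and replicates 3 and 4 likewise, in both groups. Replicates 3 and 4 differed from replicates 1 and 2 in Xist (means of 12.72 and 7.54) and Ddx3y (6.225 and 10.78), so differences within each set are given for the 6 genes and for the family genes described. The macrophage label was matched by 9 of its 10 markers, which passed the minimum for testing, with Lyz2 highest at a mean rlog of 18.75. Cd163 did not reach that minimum, with means of 2.025 in SLIT2 and 2.165 in vehicle. Of the tested markers, 1 was called higher, Fcgr1, and 1 lower, Cd68. Markers of other cells were summed on the linear scale in each library. Neutrophil markers came to between 40.6 and 45.6 in SLIT2 and between 41.4 and 57.4 in vehicle, with Ly6g and Retnlg listed at 0. Dendritic cell markers came to 37.0 to 51.6 in SLIT2 and 38.3 to 49.6 in vehicle, and mast cell and basophil markers to 26.6 to 35.0 in SLIT2 and 35.7 to 49.96 in vehicle, with Cpa3 and Fcer1a listed at 0. Lymphocyte markers, of which Cd4 was highest and Ncr1 is listed at 0, came to 681 to 876 in SLIT2 and 946 to 1219 in vehicle. Erythroid and megakaryocyte markers, led by Pf4 and with Hbb-bs listed at 0, came to 994 to 5064 in SLIT2 and 532 to 1480 in vehicle. Stromal and endothelial markers, led by Kdr, came to 1222 to 1561 in SLIT2 and 1062 to 1234 in vehicle. A single gene, Yam1, took 0.602% to 1.79% of summed linear values in SLIT2 and 1.94% to 4.99% in vehicle. The part of these differences in the results was not tested, and in bulk RNA fewer cells of a type and less RNA per cell cannot be told apart.

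Mt1 and Mt2 encode the metallothioneins that most mouse tissues make, and lie next to each other on chromosome 8, with 5513 bases between the end of Mt2 and the start of Mt1 in GRCm38. Mt1 (ENSMUSG00000031765, chromosome 8, 94179082 to 94180327) had rlog values of 10.82, 10.79, 10.93 and 10.86 in SLIT2 libraries 1 to 4, against 10.55, 10.59, 10.60 and 10.55 in vehicle libraries 1 to 4. Every SLIT2 library lay above every vehicle library, by 0.235 on average in replicates 1 and 2 and by 0.32 in replicates 3 and 4. The log2 difference was 0.28 (SE 0.044, limma adjusted p = 0.00464), a fold of 1.21, with means of 10.85 ± 0.061 in SLIT2 and 10.57 ± 0.026 in vehicle (SD, n = 4 each). The call was lost when each pair of duplicate libraries was averaged to 1 sample with the set as a block (limma adjusted p = 0.0717).

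Mt2 (ENSMUSG00000031762, chromosome 8, 94172664 to 94173568) had rlog values of 8.91, 8.76, 7.90 and 7.82 in SLIT2 libraries 1 to 4, against 8.21, 8.37, 7.31 and 7.32 in vehicle libraries 1 to 4. In both groups replicates 1 and 2 were high and replicates 3 and 4 low, so the groups overlapped, although every SLIT2 library exceeded the vehicle library of its own number. The log2 difference was 0.545 (SE 0.346, limma adjusted p = 0.379) without a block and had the same size with replicate number as a block (SE 0.067, limma adjusted p = 0.00177). It was 0.545 within replicates 1 and 2 and 0.545 within replicates 3 and 4. Averaged duplicates with the set as a block gave a limma adjusted p of 0.0441.

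The metallothionein genes thus had differences of the same sign in all 4 pairs of libraries, and varied unlike each other between the replicate sets. Mt2 averaged 7.59 in replicates 3 and 4 and 8.56 in replicates 1 and 2, a gap of -0.975 that exceeded its difference between treatments. Mt1 averaged 10.735 in replicates 3 and 4 and 10.69 in replicates 1 and 2. Within a library, the log2 value of Mt1 minus that of Mt2 was 1.91, 2.03, 3.03 and 3.04 in SLIT2 libraries 1 to 4, against 2.34, 2.22, 3.29 and 3.23 in vehicle libraries 1 to 4. For each number this gap was smaller in SLIT2 than in vehicle. Their transcripts share 0 words of 31 bases in GENCODE M21. An antisense transcript, Gm45774, shares 432 exonic bases with Mt2, and whether counting used strand is not stated, so reads of the pair cannot be told apart.

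**Figure D2:**
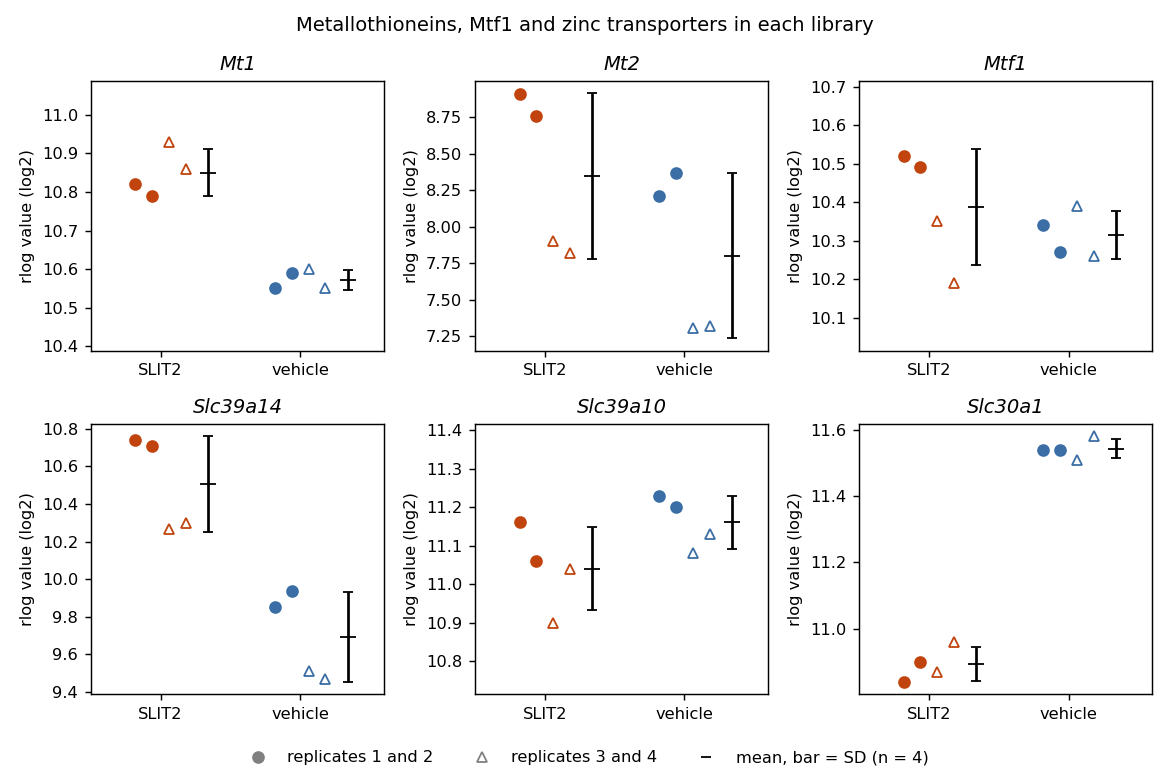
The rlog value (log2) of each gene in each library, SLIT2 on the left and vehicle on the right of each panel, each panel with its own axis. Filled circles are replicates 1 and 2, open triangles are replicates 3 and 4, and the black bar is the mean with its SD (n = 4). Mt1, Slc39a14 and Slc30a1 show no overlap, and Mt2 splits by replicate set in both groups.

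Mtf1, the gene of the zinc sensor (ENSMUSG00000028890, chromosome 4, 124802104 to 124849800), had rlog values of 10.52, 10.49, 10.35 and 10.19 in SLIT2 libraries 1 to 4, against 10.34, 10.27, 10.39 and 10.26 in vehicle libraries 1 to 4. The groups overlapped. The log2 difference was 0.07 (SE 0.078, limma adjusted p = 0.635), with a 95% interval of -0.106 to 0.251, and with the replicate block the limma adjusted p was 0.388. Within replicates 1 and 2 the gene was higher in SLIT2 by 0.20, and within replicates 3 and 4 its difference was -0.055. In replicates 1 and 2 alone Mtf1 was called higher (limma adjusted p = 0.0177), a fit that rests on the spread between duplicates. A test of the difference between the sets gave -0.255 (SE 0.091, limma adjusted p = 0.173), where 4.40% of all tested genes passed. Mtf1 shares 721 exonic bases with the gene 1110065P20Rik on the opposite strand, which averaged 7.58 ± 0.16 in SLIT2 and 7.53 ± 0.13 in vehicle (SD, n = 4 each).

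Among the importers, Slc39a14 rose. It encodes ZIP14, which carries zinc, iron and manganese and is known in mouse liver as an acute-phase gene induced by interleukin-6. Slc39a14 (ENSMUSG00000022094, chromosome 14, 70303469 to 70351425) had rlog values of 10.74, 10.71, 10.27 and 10.30 in SLIT2 libraries 1 to 4, against 9.85, 9.94, 9.51 and 9.47 in vehicle libraries 1 to 4. The lowest SLIT2 library lay above the highest vehicle library, and replicates 1 and 2 were higher than 3 and 4 in both groups. The log2 difference was 0.81 (SE 0.153, limma adjusted p = 0.0103), a fold of 1.76. Within replicates 3 and 4 the difference was 0.795, against 0.83 within replicates 1 and 2, and the call held in every alternative fit, with limma adjusted p up to 0.0344.

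Slc39a10 encodes ZIP10, an importer of the cell surface whose gene is known in mouse to be repressed through MTF1 when metal is high. Slc39a10 (ENSMUSG00000025986, chromosome 1, 46807544 to 46892852) had rlog values of 11.16, 11.06, 10.90 and 11.04 in SLIT2 libraries 1 to 4, against 11.23, 11.20, 11.08 and 11.13 in vehicle libraries 1 to 4. The groups overlapped, while each SLIT2 library lay below the vehicle library of its number. The log2 difference was -0.12 (SE 0.063, limma adjusted p = 0.281), and with the replicate block its SE was 0.031 and the limma adjusted p 0.0279. The difference was -0.105 within replicates 1 and 2, and -0.135 within the other set. With averaged duplicates the gene did not pass (limma adjusted p = 0.167).

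Slc30a1, the gene of the main zinc exporter of the cell surface, ZnT1, fell and had the smallest p of the 6 genes, rank 32 among all genes tested. Slc30a1 (ENSMUSG00000037434, chromosome 1, 191906767 to 191913247) had rlog values of 10.84, 10.90, 10.87 and 10.96 in SLIT2 libraries 1 to 4, against 11.54, 11.54, 11.51 and 11.58 in vehicle libraries 1 to 4. The groups lay apart, and the difference was -0.67 within replicates 1 and 2, against -0.63 within the other set. The log2 difference was -0.65 (SE 0.041, limma adjusted p = 6.59e-05), a ratio of 0.637, with means of 10.89 ± 0.051 in SLIT2 and 11.54 ± 0.029 in vehicle (SD, n = 4 each). The call held in every alternative fit, with limma adjusted p up to 0.0292. The antisense gene 1700034H15Rik shares 468 exonic bases with Slc30a1. Its own rlog value, below the minimum for testing, was 3.87 ± 0.34 in SLIT2 and 3.81 ± 0.16 in vehicle (SD, n = 4 each).

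**Figure D3:**
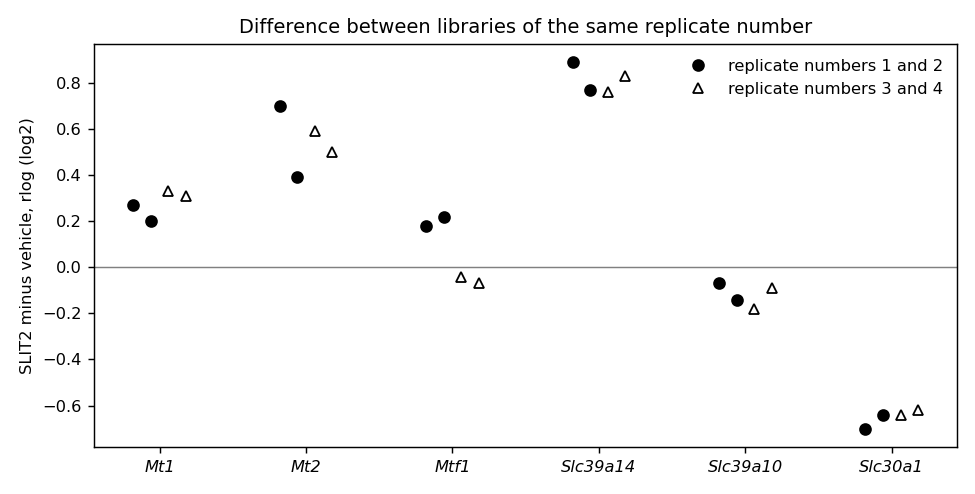
The rlog difference (log2) between the SLIT2 and the vehicle library of the same replicate number, for each of the 6 genes, with 0 as the grey line. All 4 differences are above 0 for Mt1, Mt2 and Slc39a14 and below 0 for Slc39a10 and Slc30a1, while those of Mtf1 lie on both sides.

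An exact permutation test of single values over the 8 libraries, two-sided, gave p = 0.0286, the smallest that 70 splits allow, for Mt1, Slc39a14 and Slc30a1. It gave 0.2 for Mt2, 0.371 for Mtf1 and 0.114 for Slc39a10. Such splits treat the 8 libraries as independent and exchangeable, although they fell into replicate sets of close duplicates. The permutation p-values make no allowance for these sets, so the smallest value shows only that the groups did not overlap. For the other members besides Mtf1, the difference of the SLIT2 effect between the replicate sets lay between -0.035 and 0.085 and had limma adjusted p of 0.468 or more.

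Levels of the genes can be set side by side only per length, here as the rlog value minus the log2 of transcript length in kilobases. With the longest principal transcript of GENCODE M21, Mt1 was highest in both groups, at 11.72 ± 0.061 in SLIT2 and 11.44 ± 0.026 in vehicle (SD, n = 4 each). In SLIT2 cells Mt2 followed at 9.32 ± 0.57, then Slc39a10 at 8.58 ± 0.11, Slc30a1 at 8.50 ± 0.051, Slc39a14 at 8.21 ± 0.26 and Mtf1 at 7.46 ± 0.15. In vehicle cells Slc30a1 came after Mt1 at 9.15 ± 0.029, then Mt2 at 8.77 ± 0.57, Slc39a10 at 8.70 ± 0.068, Slc39a14 at 7.39 ± 0.24 and Mtf1 at 7.38 ± 0.061. Neighbours closer than the sum of their SDs were Slc39a10 with Slc30a1 and Slc30a1 with Slc39a14 in SLIT2, and Mt2 with both of its neighbours and Slc39a14 with Mtf1 in vehicle. When all exonic bases were used as the length instead, Mt1 stayed highest and Slc39a14 became lowest in both groups, so the order of the lower genes depends on the length taken.

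In the wider families, 6 of 12 tested importer genes and 1 of 6 tested exporter genes (16.7%) were called in either direction, where 13.3% of all tested genes were. Of 29 metallothionein, Slc39a and Slc30a family genes, 20 were tested, 6 were called higher, 2 lower and 12 neither, with a median log2 difference of 0.13 against 0.0025 over all genes tested. With the replicate block 10 were called higher and 4 lower, where 33.0% of all tested genes were called. With averaged duplicates 4 were called higher and 1 lower, where 373 of all tested genes were higher and 315 lower. The 9 untested genes included 6 that are listed at 0 in every library, among them Mt4, Slc30a10 and Slc39a5. Mt3, the metallothionein best known from brain, lay between 0.63 and 0.81 in all libraries.

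Of 14 Slc39a genes, 12 were tested, 5 were called higher and 1 lower, and 6 did not pass, with a median log2 difference of 0.09. Slc39a8, whose product ZIP8 is the close relative of ZIP14 and carries the same metals, had rlog values of 10.19, 10.16, 10.10 and 10.08 in SLIT2 libraries 1 to 4, against 9.16, 9.23, 9.17 and 9.02 in vehicle libraries 1 to 4. Its log2 difference of 0.99 (SE 0.058, limma adjusted p = 6.03e-05) was the widest of the family genes tested, with 0.98 within replicates 1 and 2 and 0.995 within the other set. Slc39a12 rose by 0.73 (SE 0.091, limma adjusted p = 0.00142) to 6.64 ± 0.078 in SLIT2, against 5.91 ± 0.15 in vehicle (SD, n = 4 each), with 0.695 and 0.77 within the sets 1 and 2, and 3 and 4. Slc39a1, an importer of the cell surface, rose by 0.315 (limma adjusted p = 0.00801), with 0.375 in replicates 1 and 2 and 0.255 in the other set. Slc39a7, which releases zinc from the endoplasmic reticulum and Golgi, rose by 0.20 (limma adjusted p = 0.0354), with 0.275 in replicates 1 and 2 and 0.12 in the other set. That call of Slc39a7 was lost without any of replicates 1, 2 and 3 of either group (limma adjusted p of 0.0624 to 0.0923). Slc39a6, whose product pairs with ZIP10, fell by 0.295 (limma adjusted p = 0.00631), with -0.38 in replicates 1 and 2 and -0.21 in the other set. With averaged duplicates the calls of Slc39a1, Slc39a6 and Slc39a7 were lost (limma adjusted p of 0.0689, 0.0933 and 0.145). Slc39a3 had a difference of -0.11 (limma adjusted p = 0.238).

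Of 11 exporter genes, 6 were tested, 0 were called higher and 1, Slc30a1, was called lower, while at an unadjusted p under 0.05 there were 1 higher and 1 lower, with a median log2 difference of 0.085. With the replicate block 2 were called higher and 1 lower, where 33.0% of all tested genes were called. Slc30a7, which loads zinc into the early secretory pathway, averaged 10.84 ± 0.15 in SLIT2 and 10.58 ± 0.14 in vehicle (SD, n = 4 each). Its difference of 0.26 was the same within either set. It did not pass without a block (limma adjusted p = 0.117), passed with the replicate block (0.00122) and did not pass with averaged duplicates (0.0645).

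**Figure D4:**
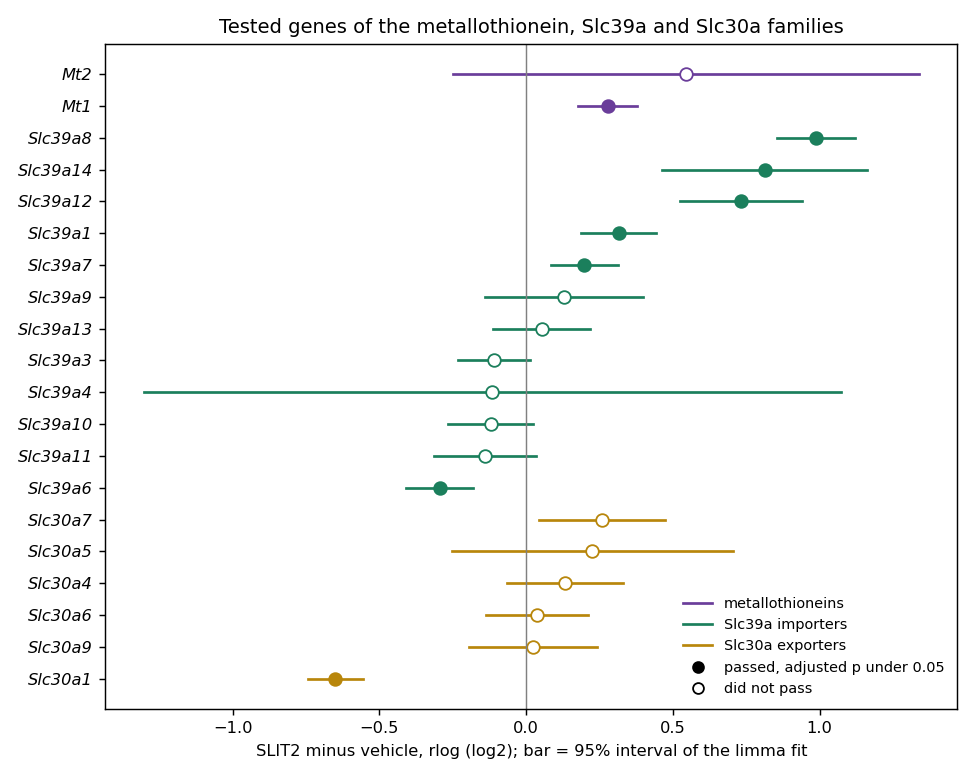
Log2 differences of SLIT2 minus vehicle for the 20 tested genes of the metallothionein, Slc39a and Slc30a families, with 95% intervals of the limma fit without a block. Filled points passed at an adjusted p of 0.05. Slc39a8 is highest and Slc30a1 lowest.

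Genes reported in mouse as regulated through MTF1 were called in both directions. Of 10 such genes, all tested, 3 were called higher, 3 lower and 4 neither, so that 60.0% were called where 13.3% of all tested genes were. The list holds 4 of the 6 genes described above, and the median log2 difference was 0.015. Besides Mt1, the stress gene Ndrg1 rose by 1.18 (SE 0.115, limma adjusted p = 4.72e-04) and the growth factor gene Pgf by 1.365 (SE 0.21, limma adjusted p = 0.00408). Besides Slc30a1, the iron exporter gene Slc40a1 fell by 1.105 (limma adjusted p = 9.60e-04) and Gclc, for glutathione synthesis, fell by 0.54 (limma adjusted p = 0.00106). With averaged duplicates, 2 genes of this list were called higher and 1 lower, where 373 of all tested genes were higher and 315 lower. None of 6 genes in a list of Mtf1 itself with its partners and cofactors (Mtf2, Ep300, Crebbp, Sp1 and Hif1a) passed in limma. Nor did any have an unadjusted p under 0.05 (0 higher, 0 lower). With the replicate block 1, Hif1a, was called higher and 0 lower, where 33.0% of all tested genes were called. With averaged duplicates 0 of these 6 genes were called in either direction.

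Among genes of other metals, 18.2% of those tested were called for copper, 28.6% for iron and 33.3% for manganese and other divalent metals, where 13.3% of all tested genes were. In copper handling 1 of 11 tested genes was called higher, the importer gene Slc31a1 by 0.58, and 1 lower, the superoxide dismutase gene Sod1, which fell by 0.53. The call of Slc31a1 (limma adjusted p = 0.0344) was lost in 5 of 8 fits that left out 1 library, those without SLIT2 replicates 1 or 2 or vehicle replicates 1, 3 or 4. In iron handling 1 of 14 was higher, the metalloreductase gene Steap4 by 3.07 (4.1 within replicates 1 and 2, 2.04 within replicates 3 and 4), and 3 were lower, Slc40a1, Ncoa4 (fell by 0.35) and Steap3 (fell by 0.44). The call of Steap3 held without vehicle replicate 3 and was lost without any other single library. With the replicate block 5 iron genes were called higher and 5 lower, where 33.0% of all tested genes were called. With averaged duplicates 0 iron genes were higher and 0 lower, where 373 of all tested genes were higher and 315 lower. Of 6 tested carriers of manganese and other divalent metals, 2 were higher, Slc39a8 and Slc39a14, and none was lower, with 4 and 0 under the replicate block and 2 and 0 with averaged duplicates.

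The glucocorticoid-induced genes and the heavy metal and heat shock genes that were called without a block were lower. Those of the S100 list were called in both directions. The shares called were 22.2% of 9 tested glucocorticoid-induced genes, 36.4% of 11 heavy metal and heat shock genes and 42.9% of 7 S100 genes. Of all tested genes 13.3% were called without a block and 33.0% with the replicate block. With averaged duplicates 373 of all tested genes were called higher and 315 lower. Glucocorticoids are known to induce Mt1 and Mt2. Of 9 tested glucocorticoid-induced genes 0 were called higher and 2 lower (0 and 5 with the replicate block, 0 and 2 with averaged duplicates), and Anxa1 fell by 0.72 (limma adjusted p = 1.05e-04) and Zbtb16 by 0.84 (limma adjusted p = 0.00328). Of 11 tested genes of the heavy metal and heat shock response, 0 were called higher and 4 lower (0 and 6 with the replicate block). The median log2 difference was -0.358. The 4 called genes, Srxn1, Gclc, Gclm and Txnrd1, act in antioxidant defence. The tested heat shock genes were not called, with differences of -0.085 for Hspa1a, -0.08 for Hspa1b, -0.17 for Hsph1 and 0.0575 for Dnajb1, nor was Hmox1, for heme breakdown, at -0.025. Slc7a11, at -0.6825, and Nqo1, at -0.735, were not called without a block (limma adjusted p = 0.0863 and 0.0634). Both were called lower with the replicate block, and Slc7a11 also passed with averaged duplicates (limma adjusted p = 0.0332). The called genes included Srxn1, which reduces oxidized peroxiredoxins and fell by 0.93 (limma adjusted p = 0.0017), and Txnrd1, a thioredoxin reductase gene, which fell by 0.36 (limma adjusted p = 0.0224). The call of Txnrd1 was lost without SLIT2 replicate 1, 3 or 4 or vehicle replicate 1 or 2, and that of Gclm (fell by 0.63, limma adjusted p = 0.0332) without any single library other than vehicle replicate 3. Of 7 tested S100 genes, for calcium-binding proteins of which some bind zinc, S100a10 was called higher by 0.18 and S100a4 and S100a6 lower, at -0.42 and -0.31, with 2 higher and 3 lower under the replicate block and 0 of either with averaged duplicates. The calls of S100a10 and S100a6 were lost in 6 and 7 of 8 fits that left out 1 library, S100a10 holding without SLIT2 replicate 1 or vehicle replicate 2 and S100a6 without SLIT2 replicate 4. With averaged duplicates, Ndrg1, Slc31a1, Sod1, Anxa1 and Zbtb16 passed, and Pgf, Slc40a1, Gclc, Gclm, Steap4, Ncoa4, Steap3, Srxn1, Txnrd1, S100a10, S100a4 and S100a6 did not, with limma adjusted p of 0.0515 to 0.144.

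The genes whose profiles lay closest to each member were found as the root mean square difference of centred rlog values over the 8 libraries. For Mt1 they were Ssr2 at 0.032 and Ccdc163 at 0.035 log2 units, where Mt1 itself varied by 0.145 about its mean. For Mt2, which varied by 0.562, they were C1ra at 0.0726 and Mon2 at 0.0929. For Slc39a14, which varied by 0.459, they were Filip1l at 0.0557 and Tle3 at 0.0661. For Slc30a1, which varied by 0.327, they were Capn5 at 0.0377 and Tmem206 at 0.0426. For Slc39a10 they were Bloc1s6 at 0.0187 and Leprotl1 at 0.0242, and for Mtf1 they were Gm16793 at 0.0384 and Camta2 at 0.039. Mt1 was thus not among the nearest profiles of Mt2.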

How the data were processed

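RNA-seq was made from 4 SLIT2 and 4 vehicle libraries, from 300 ng of total RNA each with a stranded mRNA kit and read as 101 bp pairs, per the labels' protocols. Per the submitters' processing notes, the tools included STAR, Salmon, DESeq2, Picard 2.23.8 and SAMtools 1.7, and the builds mm10 and GRCm38; their roles and settings are not stated. The deposited values are rlog values on a log2 scale, to 2 decimals, and depth is unknown. Shrinkage in the rlog understates differences of low genes.

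Genes whose rlog averaged 4 or more were fitted with limma 3.58.1 in R 4.3.3 (lmFit, eBayes with a mean-variance trend, two-sided, adjusted over 11851 genes, threshold 0.05), with treatment only. The same code was tested on simulated data. Without a block it recovered 14% of changes of 0.25 log2 units and 56% of changes of 0.5. With the replicate block it recovered 52% and 94%, so an uncalled gene is not shown to be unchanged. The simulated noise was independent between libraries, so the simulation cannot check how duplicates depend on each other. Deviations from the group means correlated across genes between libraries of the same number (0.637, 0.671, 0.753 and 0.587). The numbers were therefore treated as pairs in an alternative fit, the replicate block, although the labels give them no meaning. The main fit did not use them. Libraries of different numbers were not correlated, so pairing by number was not told apart from a shift between the replicate sets. The labels name no separate animals or cultures for the replicates, and the p-values thus reflect only variation among these libraries, which could be technical. The n of each group counts libraries, which fell into replicate sets of close duplicates. The SDs and the p-values of the fit without a block treat these duplicates as independent.

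The members and lists were chosen with earlier results of these data known. List genes were matched by gene identifier through GENCODE M21, which held 41157 of 41444 identifiers. Named genes were the 6 members, called family genes and the next 2 by p, up to 3 called genes per direction of each other list, and the 2 nearest profiles per member. Of the genes that these rules name, some are given by their difference and call alone. Genes cited for library makeup (Lyz2, Cd163, Fcgr1, Cd68, Cd4, Pf4, Kdr, Yam1, Xist, Ddx3y and markers at 0) were named after their values were seen. So were Mt3, Mt4, Slc30a10, Slc39a5, Gclm, Slc7a11, Nqo1, the heat shock genes, Hmox1 and the partners of Mtf1. Promoter sequences came from RefSeq (GRCm38.p6), for 5 of 6 members. Alternatives were a replicate block, a set block, averaged duplicates, each set alone, other filters, variance priors, scalings, weights (whose estimation stopped before its convergence tolerance) and leaving out each library. Figures were drawn with matplotlib 3.10.9.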

Additional observations from a re-analysis of the deposited data

Results flagged for a closer look

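Of 29 named genes, 4 had a SLIT2 effect that differed between the replicate sets by limma, and 0 of the 6 members did. Of all tested genes 4.40% passed the same test. The effect in replicates 3 and 4 minus that in replicates 1 and 2 was -0.68 for Pgf (limma adjusted p = 0.0458), 0.61 for Slc40a1 (0.00209), -2.06 for Steap4 (0.00704) and 0.395 for Srxn1 (0.0315). These tests rest on the spread within duplicates.

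Among 58 groups of 4 libraries, 1 had a library set apart relative to the range: for Srxn1 in SLIT2, the gap to the nearest library was 0.889 of the range. The values were 11.69, 11.61, 11.60 and 11.60 in SLIT2 libraries 1 to 4 (SD 0.044), so that range was narrow. A chance rate of about 1 in 20 such groups would hold only for independent libraries. These libraries fell into sets of close duplicates, so the rate for them is not known.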

How the results depend on the processing

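Slc39a14 and Slc30a1 kept their direction and their call in every alternative. The Mt1 difference of 0.2775 lost its call with averaged duplicates. Mt2, at 0.545, passed with the replicate block, the set block, averaged duplicates and within either set. Slc39a10, at -0.12, passed with the replicate block and the set block, and Mtf1, at 0.2, in replicates 1 and 2 alone, where 4 members were called higher. That fit rests on the spread between close duplicates, and more of all tested genes were called in it, as counted below. With either block 2 members were called lower, where 1946 of all tested genes were lower with the replicate block and 2287 with the set block. No scaling or left-out library changed the call of a member, but single libraries moved the size of uncalled differences. Mt2 was at 0.3575 without SLIT2 replicate 1 and 0.7342 without vehicle replicate 2, Slc39a10 at -0.0733 without SLIT2 replicate 3, and Mtf1 at 0.0283 without SLIT2 replicate 1, 0.0383 without SLIT2 replicate 2 and 0.1383 without SLIT2 replicate 4.

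Over all genes, 801 were called higher and 780 lower. These counts were 1966 and 1946 with the replicate block, 2365 and 2287 with the set block, and 373 and 315 with averaged duplicates. They were 2004 and 1958 in replicates 1 and 2 alone, and 1469 and 1411 in replicates 3 and 4 alone. Leaving out each library gave 517 to 665 higher and 504 to 602 lower, the fewest without SLIT2 replicate 2. Searching for TGCACNC alone left 2 metal cores in the Mt1 window, 2 in the Mt2 window and 1 in the Slc30a1 window. The cause of these changes was not tested.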
